A study of Mus musculus with 5 samples.

Results

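Proteasome genes were followed across 5 expression arrays of mouse embryonic stem (ES) cells and their derivatives. The genes were chosen by name: every platform symbol that starts with Psma, Psmb, Psmc, Psmd, Psme, Psmf or Psmg and a digit, without the immunoproteasome subunits Psmb8, Psmb9 and Psmb10. This gave 37 genes of the 16032 named on the platform, each with 1 probe. Of these, 36 encode subunits, assembly factors, activators or an inhibitor of the proteasome. The other member, Psmc3ip, meets the symbol rule but encodes a meiotic recombination factor and is given apart. Psma5, Psmb3, Psmb11, Psme2, Psme3 and Psmg4 were not analysed here, and Psmg1, Psmg2 and Psmg3 stand on the platform under older names and are no members.

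All cells were derivatives of E14tg2a, a male ES line of strain 129, and carried a myristoylated Akt kinase fused to Mer, a receptor domain through which 4-hydroxytamoxifen (4OHT) switches the kinase on. Line 21 gave 1 array each of untreated ES cells (without 4OHT), of ES cells given 1 µM 4OHT, and of ES-like cells obtained from line 21 spheres on embryonic fibroblasts (reverted cells). The latter are labelled with a transient 4OHT treatment, and whether 4OHT was present at harvest is not given in the sources used here. A pair of arrays came from Akt-spheres, grown on OP9 stroma with 1 µM 4OHT and labelled as primordial germ cell (PGC)-like, once from line 21 and once from line 42. Each line is 1 transgenic line, and an array of line 42 ES cells was not analysed here, so line and replicate cannot be told apart in the spheres. The OP9 cells were removed before harvest by letting them attach to a dish for 30 minutes.

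The proteasome degrades proteins tagged with ubiquitin. Its 20S core is a barrel of alpha and beta rings, in which Psmb5, Psmb6 and Psmb7 carry the catalytic sites. The 19S cap recognises, unfolds and feeds in substrates through a ring of ATPases (the Psmc genes) and a set of non-ATPase subunits (most Psmd genes). Proteasome genes are expressed in every cell, and the transcription factor Nfe2l1 is known to raise many of them together when proteasome activity is short. Immune signals can replace the catalytic subunits by Psmb8, Psmb9 and Psmb10, and testis uses the alpha subunit Psma8.

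Values are deposited intensities on a linear scale, and differences are of log2(intensity + 1) after each array was centred on its median. Each array had a median of about 50 over its listed probes, and 1392 to 2084 of 22871 probes had no value. A gene was compared if every array concerned listed a value for it and at least 1 of these reached the 40th percentile, and all 37 members did so on every array. On each array the median member was brighter than 96.4% to 97.1% of listed probes. Markers of ES cells summed to 94014 to 109286 on the 3 ES-type arrays and to 13969 and 23310 in spheres of lines 21 and 42. Dppa5a alone made 49687 to 58362 of the ES-type sums. It was lower in both spheres than on every ES-type array, as were Esrrb, Zfp42, Klf4, Tbx3, Tdgf1 and Nr0b1. Nanog read 3839 to 5480 on ES-type arrays and 5523 and 4003 in spheres of lines 21 and 42. Utf1 read 5125 to 7534 on ES-type arrays and 2821 and 7842 in these spheres. Markers of OP9 stroma and mesenchyme, 12 on the platform, summed to 2219 to 4266 on ES-type arrays and to 1128 and 662 in spheres. Of these 12 markers, 6, 6 and 8 reached the 40th percentile in ES cells without 4OHT, ES cells with 4OHT and reverted cells, and 4 and 5 in spheres of lines 21 and 42. Of 7 PGC markers, 7 and 6 reached that percentile in spheres of lines 21 and 42 and 6 or 7 on the ES-type arrays. Prdm14, Tfap2c and Nanos3 read higher in both spheres than on every ES-type array, Ifitm3 read lower, and Prdm1, Dppa3 and Kit overlapped. Dppa3 read 223 and 9198 in spheres of lines 21 and 42 and 171 to 1626 on ES-type arrays. In bulk RNA, fewer cells of a type and less RNA per cell cannot be told apart.

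Proteasome genes kept a narrow range across the 5 cultures. From the lowest to the highest array, the median member spanned 0.53 on the log2 scale, against 0.96 for the 10589 genes compared and 0.80 for the 1612 genes with a mean intensity of at least 1000. A span under 2-fold was seen in 34 of 37 members (91.9%), in 52.5% of all genes and in 65.2% of the brighter genes. The members' median span was 0.60 without centring and 0.70 under quantile normalization, which left 0.96 and 0.81 for all and for the brighter genes. The 19S lid gene Psmd12 had the narrowest span, 0.18, reading 3557, 4179.9 and 3739.9 in ES cells without 4OHT, ES cells with 4OHT and reverted cells, and 4080 and 4031 in the spheres of lines 21 and 42. The exceptions above 2-fold were Psma8 (1.72), the PA28 activator gene Psme1 (1.54) and Psmc3ip (1.51).

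**Figure D1:**
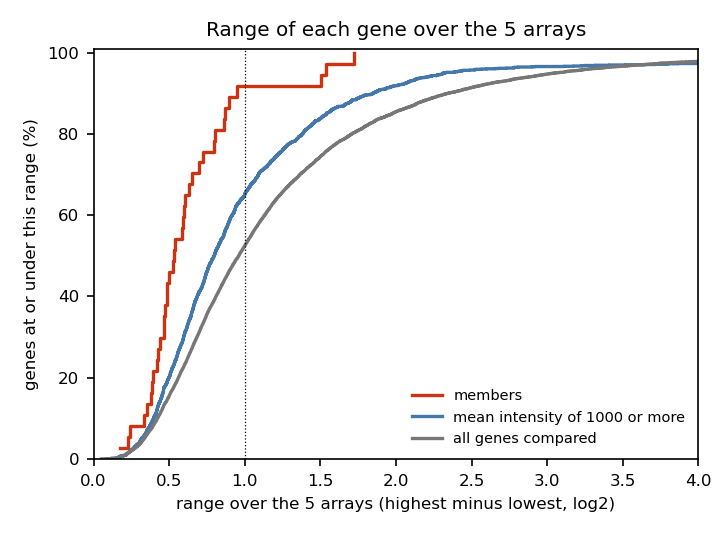
Cumulative share of genes (vertical axis, %) at or under a given range over the 5 arrays (horizontal axis, highest minus lowest log2 level, drawn to 4) for the 37 members, the 1612 genes with a mean intensity of at least 1000 and all 10589 genes compared. The dotted line marks a 2-fold range, which 91.9% of members, 65.2% of brighter genes and 52.5% of all genes did not reach.

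Reverted cells held the highest level of 17 of 37 members (45.9%, against 18.8% of all genes compared and 16.3% of the brighter genes). ES cells without 4OHT held the lowest level of 14 members (37.8%, against 13.7% and 10.7%). Line 42 spheres held the highest level of 10 members (27%, against 23.9% of all and 24.9% of the brighter genes), a count that was 6 under quantile normalization. Line 21 spheres and ES cells with 4OHT each held that of 4 members (10.8%, against 23% and 18.8% of all genes), and ES cells without 4OHT that of 2 (5.41%, against 15.5%). These counts describe 5 arrays and have no test.

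**Figure D2:**
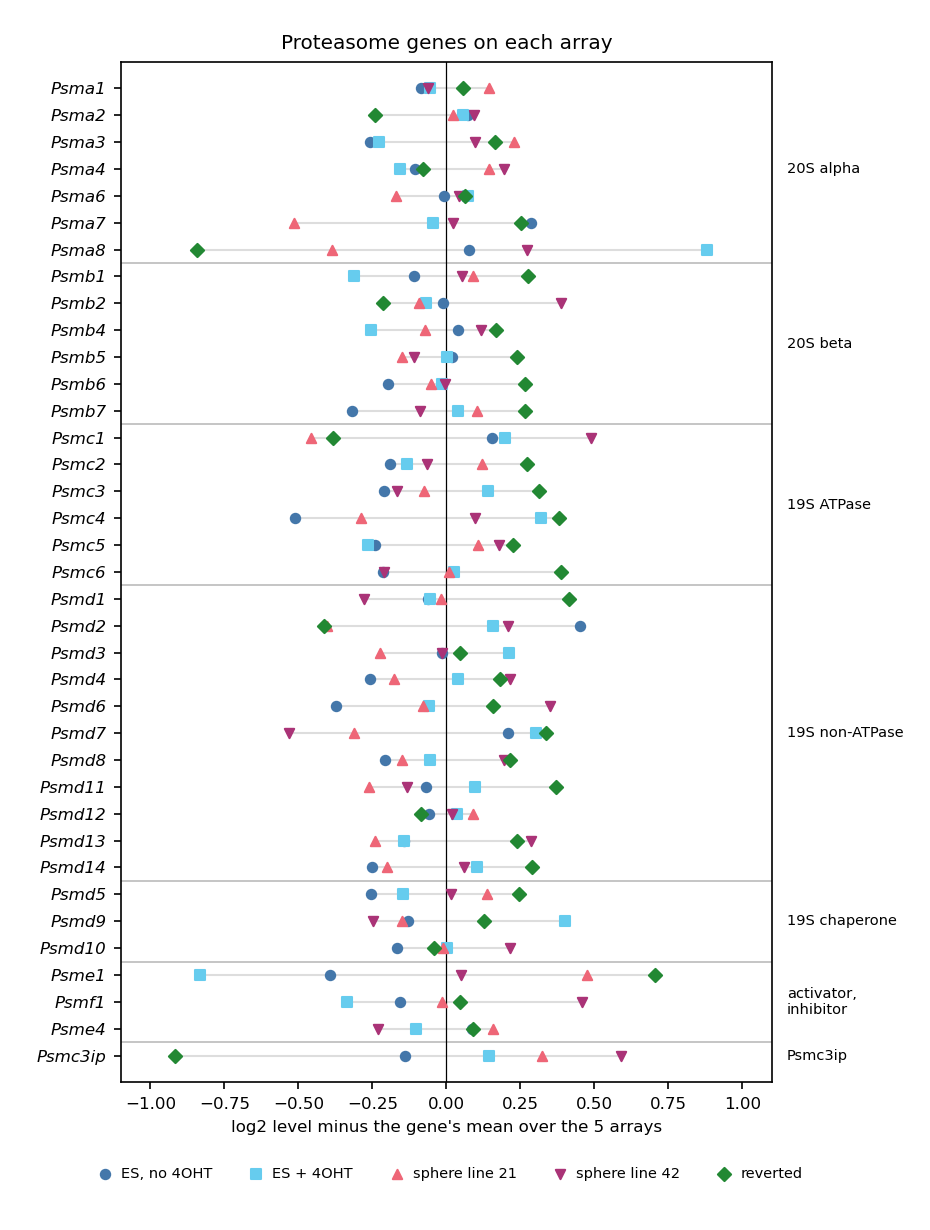
Level of each of the 37 members on each array, as the log2 level minus the gene's mean over the 5 arrays (horizontal axis), with genes grouped by role and 1 symbol per array. Reverted cells are the rightmost symbol for 17 genes and ES cells without 4OHT the leftmost for 14.

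Both sphere arrays (n = 2) were first set against all ES-type arrays (n = 3), the comparison that asks which genes part both sphere lines from every ES-like culture. The 3 ES-type arrays are 3 different conditions and no replicates of 1. The standard errors and p-values of this fit therefore hold the differences between these conditions. No member passed: limma called 0 of 37 at an adjusted p of 0.05, where it called 0.963% of 10589 genes higher and 1.47% lower, and 1 member, Psmd7, lay lower at an unadjusted p under 0.05 (9.59% of all genes). The median difference of the members was 0.03 on the log2 scale, against 0.00 for all genes. Standard errors of the members' differences ran from 0.21 to 0.53 with a median of 0.25. Of the members, 2 lay higher on both sphere arrays than on all 3 ES-type arrays (19.1% of all genes did), Psma4 and Psmc3ip. Another 4 lay lower on both (18.5% of all genes), namely Psmb5, Psmd7, Psmd9 and Psmd11. The arrays of the other 31 members overlapped. On every pair of arrays 0 members were 1.5-fold apart, against 4.11% of all genes higher and 4.97% lower. Without centring, Psmd9 and Psmd11 overlapped as well. Psmd9 read 215 in line 21 spheres against 211 in ES cells without 4OHT, and Psmd11 read 5118 in line 42 spheres against 4985.

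Leaving out 1 array makes such separation easier by construction. The count of members higher on the sphere side was then 10 without line 21 spheres (27%, against 33.5% of all genes), 6 without line 42 spheres (16.2%, against 32.1%), 9 without reverted cells (24.3%, against 27.9%) and 4 without ES cells with 4OHT (10.8%, against 22.3%). The count lower was 9 without line 42 spheres (24.3%, against 33.7%) and 10 without ES cells without 4OHT (27%, against 21.7%). Under quantile normalization, 5 members lay higher and 1 lower.

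Each intensity below is given in the order ES cells without 4OHT, ES cells with 4OHT, line 21 spheres, line 42 spheres and reverted cells. In each functional group the members with the highest and the lowest difference between spheres and ES-type arrays are described. Members named beyond these, apart from Psme1 and Psmc3ip, were chosen after their values were seen.

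In the alpha ring, which forms the outer gates of the core, Psma4 read 5550, 5891, 6819, 7335 and 6061. Both spheres lay above the other 3 arrays, with a difference of group means of 0.28 (SE 0.21, limma adjusted p = 0.534). Psma7, another alpha subunit, read 8492, 7416, 5043, 7592 and 8881, with line 21 spheres the lowest and line 42 spheres inside the ES-type values. Its difference was -0.41 (SE 0.27, limma adjusted p = 0.477), and it was -0.14 without line 21 spheres and -0.68 without line 42 spheres. Psma8, the alpha subunit best known from testis, read 98.9, 190.9, 74.0, 121.8 and 55.7. It was the most variable member, and the spheres lay between reverted cells and ES cells with 4OHT.

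In the beta ring, Psmb2 read 6346, 6708, 6204, 8983 and 5905, with a difference of 0.25 (SE 0.25, limma adjusted p = 0.662). Line 42 spheres were the highest array and line 21 spheres lay inside the ES-type values. Psmb5, which carries the chymotrypsin-like activity, read 27692, 30068, 25463, 27154 and 34520. The spheres were the lowest arrays, with a difference of group means of -0.22 (SE 0.22, limma adjusted p = 0.662).

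Among the 19S ATPases, Psmc5 read 4078, 4418, 5369, 5855 and 6036, a difference of 0.24 (SE 0.25, limma adjusted p = 0.684). Reverted cells rather than ES cells stood beside the spheres. Psmc3 read 5329, 7479, 6052, 5904 and 8223, a difference of -0.20 (SE 0.25, limma adjusted p = 0.731), with the spheres between ES cells without 4OHT and the other ES-type arrays.

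Psmd7, a non-ATPase subunit of the 19S lid and the partner of the deubiquitinase Psmd14, stood furthest from the ES-type arrays among the 36 proteasome genes. It read 4992, 5856, 3596, 3206 and 5843, so that both spheres lay below all other arrays. The difference was -0.70 (SE 0.22, 1.63-fold lower), and it did not pass (limma unadjusted p = 0.0182, adjusted p = 0.164). With 1 array left out it ran from -0.81 to -0.60. Psmd14 itself read 4016, 5654.5, 4305, 5356 and 6262, with the spheres inside the ES-type values. At the other end of the group Psmd6 read 1802, 2461, 2284, 3192 and 2784, a difference of 0.23 (SE 0.28, limma adjusted p = 0.721).

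The chaperones Psmd5, Psmd9 and Psmd10 assemble the ATPase base and leave the finished particle. Psmd10 read 417, 515, 481, 583 and 487, a difference of 0.17 (SE 0.22, limma adjusted p = 0.738). Psmd9 read 211, 336, 215, 208 and 271, a difference of -0.33 (SE 0.25, limma adjusted p = 0.542). The spheres stood close to ES cells without 4OHT in deposited intensity.

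Of the activators, Psme1 read 1054, 854, 1991, 1537 and 2420.1. It encodes a subunit of the PA28 ring, which opens the core without ATP. Spheres lay between the ES cells and the reverted cells, so the groups overlapped (difference 0.44, SE 0.48, limma adjusted p = 0.692). Against ES cells with 4OHT alone, Psme1 was 2.14-fold higher in spheres (limma adjusted p = 0.460). Psme4, which encodes the PA200 activator, read 167, 161, 182, 144 and 179.7, a difference of -0.06 (SE 0.24, limma adjusted p = 0.919). Psmf1, which encodes the inhibitor PI31, read 587, 571, 671, 967 and 725, a difference of 0.37 (SE 0.26, limma adjusted p = 0.513).

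Psmc3ip, the recombination factor, read 857, 1145, 1221, 1523 and 535. Both spheres were above all other arrays. Between group means Psmc3ip differed by 0.76 (SE 0.36, limma adjusted p = 0.330), and by 0.45 without reverted cells. Against reverted cells it was 2.59-fold higher (limma unadjusted p = 0.0283, adjusted p = 0.479), where 3.72% of all genes were higher at an unadjusted p under 0.05.

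**Figure D3:**
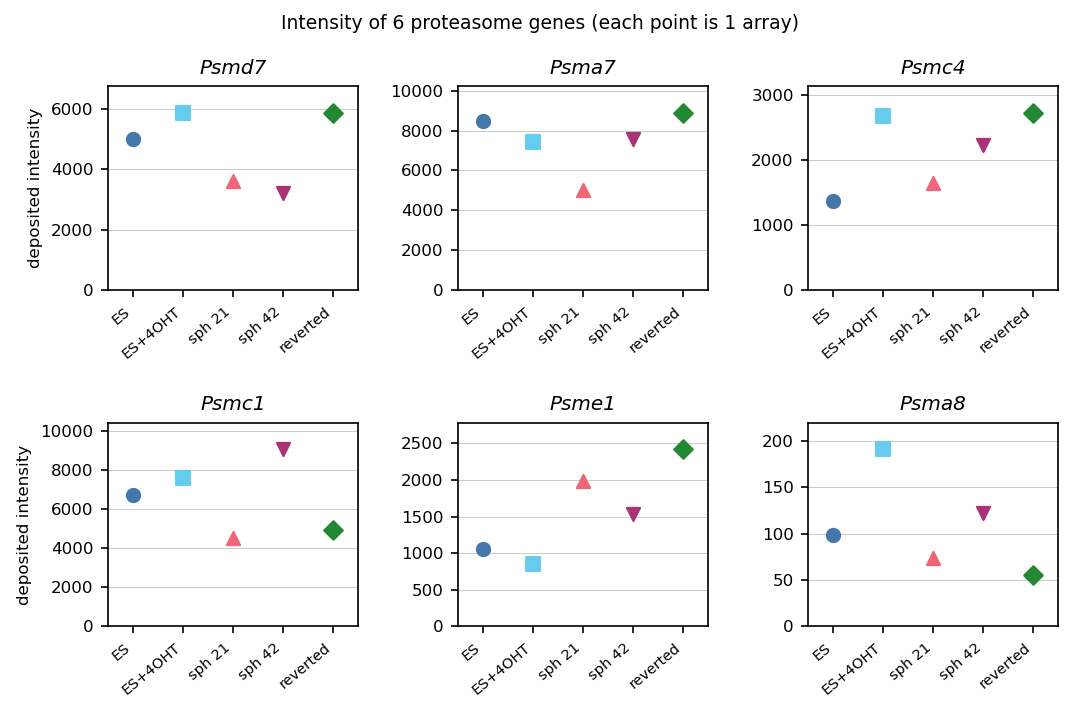
Deposited intensity (vertical axes, linear, from 0) of Psmd7, Psma7, Psmc4, Psmc1, Psme1 and Psma8 on the 5 arrays, 1 point an array. Psmd7 is lowest on both sphere arrays, and Psmc1 reads 4544 and 9089 in spheres of lines 21 and 42.

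Spheres were next set against each ES-type array. In these fits, with 1 residual degree of freedom, limma called 0 genes of the whole table. At an unadjusted p under 0.05 stood 9.37%, 11.6% and 8.91% of all genes against ES cells without 4OHT, with 4OHT and reverted cells, and 0, 0 and 1 members. Against ES cells without 4OHT, the members' median was 0.16, and 0 members were 1.5-fold apart on both pairs (10.6% of all genes higher, 11.2% lower). Against ES cells with 4OHT the median was 0.00, which was -0.06 without centring and 0.15 under quantile normalization. Psme1 was at least 1.5-fold higher on both pairs (12.7% of all genes) and Psma8 and Psmd7 at least 1.5-fold lower (12.5%). Against reverted cells the median was -0.17, with 10 members higher (51% of all genes) and 27 lower (49%). Psmc3ip was at least 1.5-fold higher on both pairs (9.3% of all genes) and Psmd7 lower (10.8%). These comparisons share the sphere arrays.

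Reverted cells against ES cells without 4OHT ask whether the genes returned to their starting level. With 1 array a side there is no replicate check, and the differences are given without a test of their own. Of 37 members, 29 were higher in reverted cells, where 50.1% of all genes and 39.7% of the brighter genes were. The members' median was 0.26, against 0.00 for all genes and -0.11 for the brighter genes. It was 0.36 without centring and 0.55 under quantile normalization, while the median of all genes was 0.10 and 0.11. At least 1.5-fold higher were 3 members (13.8% of all genes), Psme1, Psmc4 and Psmc6, and at least 1.5-fold lower were 3 (15.1%), Psma8, Psmd2 and Psmc3ip. The count higher was 8 without centring and 18 under quantile normalization. Of all genes at least 1.5-fold apart, 47.7% were higher, and 59.6% and 59.1% were under these scalings. As an alternative that takes the spread between the sphere arrays for these cultures, limma called 0 of 37 members and 0 of all genes, and 0 members and 327 genes had an unadjusted p under 0.05. Of the fibroblast feeder markers, 7 on the platform, 5 reached the 40th percentile in reverted cells and 3 in ES cells without 4OHT. They summed to 1352 and 2184, of which Vim, which ES cells also express, made 567 and 1869.8. S100a4 read 360.5 and 19.6 and Col5a2 85.8 and 18.1. Twist1 read 255.9 and 220.9, Twist2 53.5 and 31.6, Fap 24.05 and 24.5, and Prrx1 4.9 and no value. S100a4 also read 279.6 in line 21 spheres, which were grown on OP9 stroma. The stroma and mesenchyme markers summed to 4266 and 2219, of which Sparc made 2431 and 879. The part of either marker list in the differences was not tested.

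Cap and core subunits shared this direction, with a gap between them that depended on the scaling. Of the 19S subunits 14 of 17 were higher (median 0.44), and of the 20S subunits 9 of 13 (median 0.13). Of all genes 50.1% were higher, and of the brighter genes 39.7%. The gap between these 2 medians, 0.31, was 0.16 under quantile normalization, where 15 of 17 and 11 of 13 were higher. With 1 array a side the gap was not tested. Among the ATPases 5 of 6 were higher, with a median of 0.50. Psmc4 read 1369, 2680.1, 1654, 2240.3 and 2725 and was 1.86-fold higher in reverted cells. Psmc6 read 4071, 5282, 4915, 4375 and 6613 and was 1.52-fold higher. The exception, Psmc1, read 6719, 7616, 4544, 9089 and 4964 and was 1.45-fold lower. Psmd1 and Psmd2 encode the scaffold subunits of the base. Psmd2 read 2637, 2364, 1507, 2388 and 1551, so that reverted cells stood with the line 21 spheres that their label names as their source. Psmd1 read 4149, 4581, 4432, 3834 and 6196, highest in reverted cells.

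The same starting array serves the comparison of ES cells with and without 4OHT, which asks what the drug does in ES culture. The median of the members was 0.08, with 25 higher, against -0.03 for all genes, of which 47.3% were higher. It was 0.22 without centring, which moves the median of all genes to 0.11, and 0.14 under quantile normalization. At least 1.5-fold higher were 2 members, Psmc4 (1.78-fold) and Psma8 (1.75-fold), and 0 were lower (8.21% and 8.94% of all genes). Of all such genes 47.9% were higher, a share of 69.4% without centring and 66.9% under quantile normalization. Of the 19S subunits 15 of 17 were higher (median 0.15), and of the 20S subunits 6 of 13 (median -0.02). Without centring these were 16 and 10, and under quantile normalization 16 and 9, so the sign of the 20S median depends on the scaling. Under the limma alternative with the spread of the sphere arrays, 0 members and 0 of all genes were called, and 0 members and 147 genes had an unadjusted p under 0.05. Psme1, Psme4 and Psmf1 were lower with 4OHT, by 1.36-fold, 1.14-fold and 1.13-fold.

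The sphere lines differed by less than 1.5-fold in 34 members. Psmc1 (1.93-fold), Psma8 (1.58-fold) and Psmd2 (1.53-fold) were higher in line 42 (18.6% of all genes) and 0 members were lower by as much (17% of all genes). The median was 0.07, and it was -0.05 under quantile normalization. On the log2 scale the difference of Psmc1 between the lines, 0.95, was larger than that of Psmd7 between spheres and ES-type arrays.

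**Figure D4:**
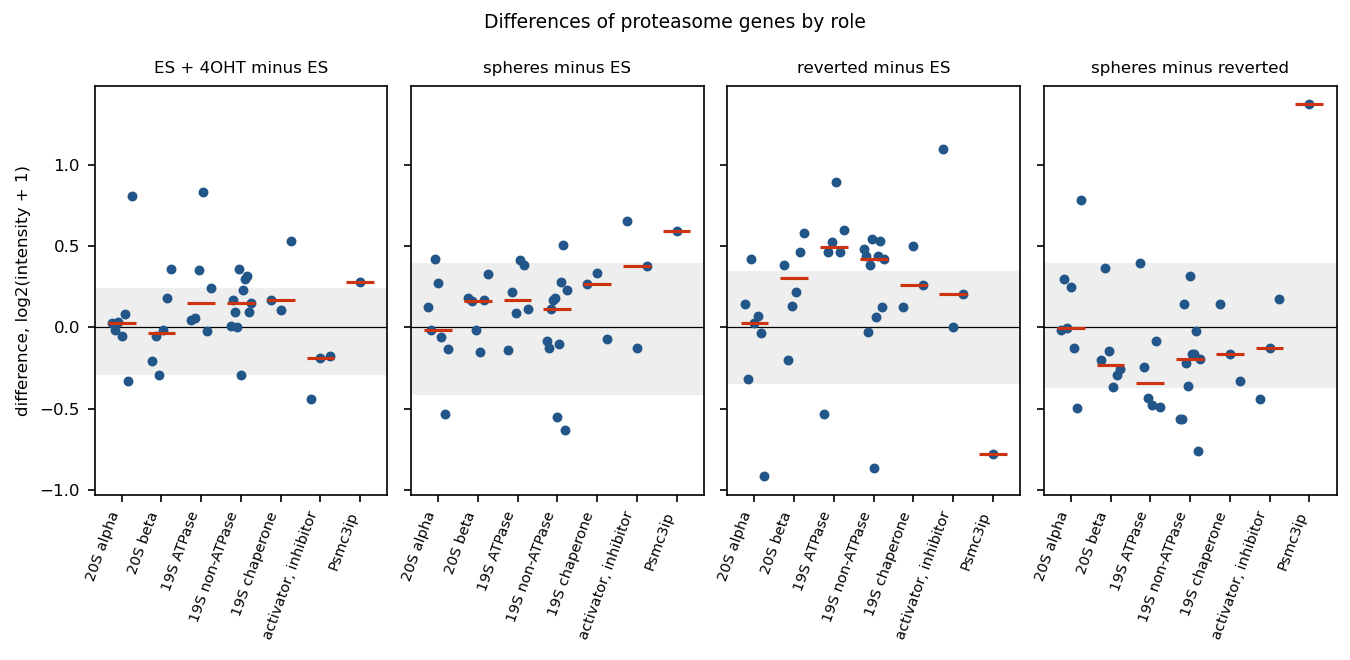
Difference of each member in log2(intensity + 1) (vertical axis) by role (horizontal axis) in 4 comparisons, 1 point a gene, with a red bar at the median of each role and a grey band between the quartiles of all genes compared. In reverted cells against ES cells without 4OHT the ATPase median is 0.50 and the alpha ring median 0.03.

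Promoter sequence is shown for members that, after centring, lay lower on both sphere arrays and for those at least 1.5-fold higher in reverted cells. It is given only for members with 1 window in the RefSeq promoter table (GRCm38.p6). None is given for Psmd7, which also lay lower on both sphere arrays. The table held 30 of the 37 members. Each line gives the 120 bases before the annotated start, 5′ to 3′ on the gene's strand. Capitals mark matches on either strand to an antioxidant response element (TGACNNNGC), the kind of site that Nfe2l1 and Nfe2l2 bind, or to an ETS core (CCGGAAG).
Psmb5: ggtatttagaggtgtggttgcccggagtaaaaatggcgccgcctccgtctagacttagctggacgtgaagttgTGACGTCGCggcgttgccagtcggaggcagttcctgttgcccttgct
Psmd9: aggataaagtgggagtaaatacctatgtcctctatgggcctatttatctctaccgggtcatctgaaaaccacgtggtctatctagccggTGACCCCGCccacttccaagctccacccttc
Psmd11: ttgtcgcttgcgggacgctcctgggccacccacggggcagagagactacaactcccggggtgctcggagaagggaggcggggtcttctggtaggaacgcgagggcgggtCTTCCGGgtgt
Psmc4: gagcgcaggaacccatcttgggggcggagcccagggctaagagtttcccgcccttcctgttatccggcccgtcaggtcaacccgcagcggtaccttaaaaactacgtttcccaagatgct
Psmc6: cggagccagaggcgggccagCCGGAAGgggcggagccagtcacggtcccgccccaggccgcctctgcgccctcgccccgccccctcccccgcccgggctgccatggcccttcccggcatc
Psme1: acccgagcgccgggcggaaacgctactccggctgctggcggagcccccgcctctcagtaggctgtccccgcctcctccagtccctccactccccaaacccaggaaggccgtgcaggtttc
They lie at chr14:54617996-54618115 (minus strand), chr5:123228070-123228189 (plus), chr11:80428495-80428614 (plus), chr7:28050093-28050212 (minus), chr14:45329704-45329823 (plus) and chr14:55578374-55578493 (plus). The element in Psmb5 starts 47 bases before the start site and that in Psmd9 starts 31 bases before it. The ETS core starts 11 bases before the start in Psmd11 and 100 in Psmc6. Over the 250 bases before the start, 5 of 30 members held the antioxidant element, against 10.2% of all windows, and 11 of 30 held the ETS core, against 6.91%. A CCAAT box stood in 11 members (33.8% of all windows), an E-box (CACGTG) in 2 (6.02%), an interferon-stimulated response element in 2 (2.98%), a TATA box (TATAAA) in 3 (12.4%) and a nuclear respiratory factor site in 1 (0.782%). These 7 motifs were chosen after the values were seen, and a match is a description of the letters only.

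The immunoproteasome genes were left out of the members and are set beside the subunits they replace. Psmb8, the counterpart of Psmb5, read 80.1, 14.2, 18.3, 12.7 and 421, and was below the 40th percentile in both spheres and in ES cells with 4OHT. Psmb10, the counterpart of Psmb7, read 268, 58.7, 72.5, 128.5 and 1214, while Psmb7 read 2058, 2901, 2851, 2589 and 3303. Psmb9, the counterpart of Psmb6, read 117.0, 93.3, 49.0, 33.6 and 122.5, with both spheres the lowest (difference -1.41, SE 0.29, limma adjusted p = 0.0709). Psmb6 read 16065, 20000.4, 18374, 19697 and 23712. Of 10 immunoproteasome and peptide loading genes, 0 passed limma between spheres and ES-type arrays. All 10 had a difference below 0 (49.9% of all genes did), with a median of -1.02, and 2 of 10 lay lower on both spheres than on every ES-type array (18.5% of all genes). The median was -0.59 against ES cells without 4OHT and -0.45 against ES cells with 4OHT, each with 2 of 8 compared genes above 0, and -1.58 against reverted cells. In reverted cells against ES cells without 4OHT, 8 of 10 were at least 1.5-fold higher (13.8% of all genes), with a median of 1.06. On the reverted array the stroma and mesenchyme markers also summed highest (4266). Sparc, Tagln and Acta2 made 2431, 665 and 606 of this, while Col1a1, Col3a1, Lum, Dcn and Postn each read at most 36. The fibroblast feeder markers summed lowest there (1352, against 2047 to 3107 on the other arrays). Vim, which ES cells also express, read 567 there against 1597 to 2815 on the other arrays. S100a4, Col5a2 and Twist1 read highest on the reverted array, and Twist2, Fap and Prrx1 did not. The part of either marker list in these levels was not tested.

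**Figure D5:**
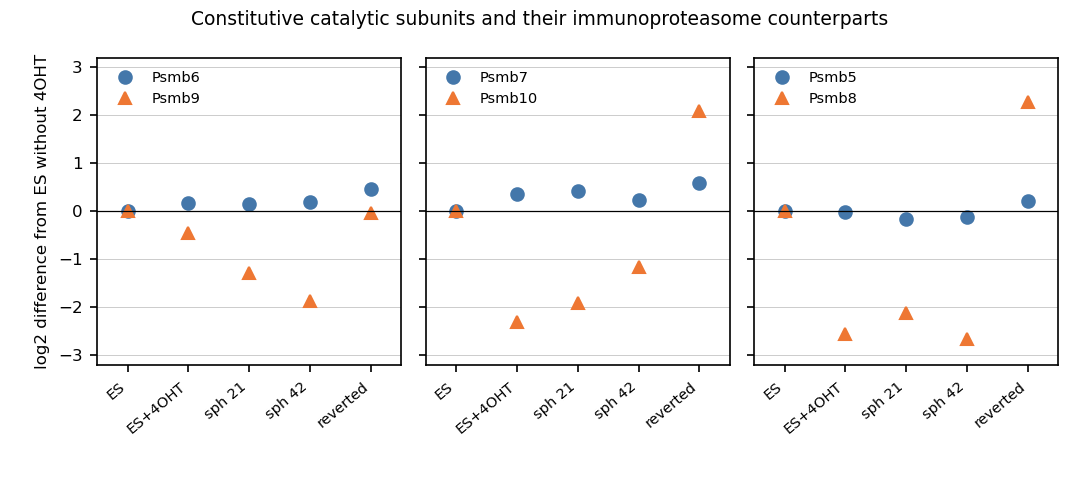
Log2 level on each array minus that in ES cells without 4OHT (vertical axis) for the catalytic subunits Psmb6, Psmb7 and Psmb5 (circles) and their immunoproteasome counterparts Psmb9, Psmb10 and Psmb8 (triangles). Psmb7 reaches 0.58 in reverted cells, while Psmb10 and Psmb8 lie below 0 with 4OHT and in spheres and above 0 in reverted cells.

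Other genes of the pathway came from 6 lists, of which 57 genes were compared between spheres and ES-type arrays. Of 9 regulators of proteasome genes, 1 passed limma (of all genes 1.47% passed lower and 0.963% higher). This gene, Stat3, read 256, 315, 57.2, 45.4 and 262 and fell by 2.41 in spheres (SE 0.24, limma adjusted p = 0.0145). Nfe2l1 read 343, 561, 467, 408 and 453, with the spheres inside the ES-type values. Nfe2l2 read 311, 586, 188, 99 and 288, with both spheres below every ES-type array. Of the 9 regulators, 2 lay lower on both spheres (18.5% of all genes) and 0 higher (19.1%). Faf1, an adaptor of the segregase Vcp, read 2211, 1806, 377, 68.4 and 874, a difference of -3.22 (SE 0.79, limma adjusted p = 0.106). Of the ubiquitin-conjugating E2 enzymes, 0 of 12 passed and 10 of 12 had a difference above 0 (50.1% of all genes), with a median of 0.42. Of 13 partners of the 26S particle 0 passed, and 6 had a difference above 0 (50.1% of all genes), with a median of -0.01. Pomp, which matures the 20S core, read 2896, 3608, 2296, 2203 and 4978, lowest in both spheres (difference -0.73, SE 0.28, limma adjusted p = 0.245). Of the shuttles 4 of 11 and of the ubiquitin and E1 genes 1 of 2 had a difference above 0 (50.1% of all genes), and 0 of either passed.

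Psmg1, Psmg2 and Psmg3 help to assemble the core and were found under older symbols. Psmg1 read 3369, 3748, 1660, 3715 and 1463, low in line 21 spheres and in reverted cells. Psmg3 read 1431, 1254, 969, 2291 and 976, and Psmg2 read 456, 319.9, 382, 61.7 and 202.5. All 3 were at least 1.5-fold lower in reverted cells than in ES cells without 4OHT (15.1% of all genes).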

How the data were processed

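RNA was amplified to amino allyl antisense RNA and hybridised to 1-colour arrays, per the labels' protocols. The authors deposited probe intensity values on a linear scale. For background correction, scaling and the rule for empty cells the sources used here give nothing. Probes were named from the platform annotation, with symbols updated through the RefSeq gene table. A gene with several probes was taken by its brightest. Values were taken as log2(intensity + 1) and arrays were centred by their medians over 18884 probes listed on all 5. limma 3.58.1 in R 4.3.3 (lmFit, eBayes, Benjamini-Hochberg over all genes compared, threshold 0.05) was fitted to the whole table and tested on simulated data. Single arrays were compared by differences of at least 1.5-fold; as an alternative, limma took the spread between the sphere arrays for reverted cells and for ES cells with 4OHT, each against ES cells without 4OHT. Nothing says that the arrays come from repeat cultures, so p-values measure only the spread between these arrays, and their number limits the precision.

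The members and lists were chosen with earlier results of these data known. Intensities were given in every array for members past limma in any comparison, members at least 1.5-fold apart on every pair of sphere and ES-type arrays or 2-fold apart between single arrays, and the highest and lowest difference in each role. Of the pathway lists, genes past limma or 2-fold apart on every pair were named. Nfe2l1, Nfe2l2, Pomp, the immunoproteasome subunits and the Psmg genes were added after their values were seen. Alternatives were the pseudocount (0.5 and 16), the filter (none and the 60th percentile), the scaling (none and quantile), all probes of a gene, an intensity trend in limma, a 2-fold limit and each array left out.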

Additional observations from a re-analysis of the deposited data

How the results depend on the processing

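The count of members past limma was 0 under every alternative run. A pseudocount of 0.5 moved no count by over 1.5 times and no median by over 0.079 (the SD of the members' median between sphere arrays). Both other filters, all probes of a gene and an intensity trend could not move a member's difference or overlap, so they do not check these. A filter only chooses which genes are compared, each member has 1 probe, and a trend enters only the limma p-values. Under quantile normalization the members' median was 0.14 for spheres against ES-type arrays, 0.36 when set against untreated ES cells, 0.15 when set against ES cells with 4OHT, 0.55 for reverted cells against ES cells without 4OHT and -0.052 for line 42 against line 21, and without centring it was 0.36 for reverted cells and 0.22 for 4OHT. Members not overlapping were then 5 higher and 1 lower under quantile normalization and 2 lower without centring. The highest level lay on ES cells without 4OHT for 1 member under both scalings and on line 42 spheres for 6 under quantile normalization, and the lowest on line 21 spheres for 3. Members at least 1.5-fold higher in reverted cells were 8 without centring and 18 under quantile normalization, and 0 were lower in spheres than in reverted cells under the latter. With 2-fold in place of 1.5-fold, 1 member was higher in reverted cells than in ES cells without 4OHT and 0 lower, 0 were higher with 4OHT, 0 higher in line 42, 0 higher and 0 lower in spheres than in ES cells with 4OHT, and 0 lower than in reverted cells. With a pseudocount of 16, 1 member was lower in spheres than in ES cells with 4OHT.

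With each array left out in turn, members not overlapping ran from 2 to 10 higher and from 4 to 10 lower, and the members' median from -0.057 (without line 42 spheres) to 0.08 for spheres against ES-type arrays. With 1 sphere array left out, the median against reverted cells ran from -0.23 to -0.068. Members at least 1.5-fold apart then ran from 1 to 4 higher and 1 to 3 lower against ES cells without 4OHT, from 1 to 2 higher and 3 to 4 lower against ES cells with 4OHT, and from 1 to 5 higher against reverted cells, with 4 lower whichever sphere array was left out.

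No paired analysis was possible because line 21 gave an array in every group but line 42 gave a sphere array only, which leaves 1 pair. The added settings (the brighter background, the spans and the signs of single members under each scaling, and single members and the share of all genes with 1 array left out) were chosen after seeing the data. Intensities near an array's floor have no known error, and probes with no value were left out of each comparison that needed them.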
